A study of Gallus gallus with 20 samples.

Results

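The comparison described here is between the endotoxin-treated cultures of HD11, a line of chicken cells with macrophage traits that a tumour virus made immortal, harvested at 8 hours post stimulation (hps) and those harvested at 4 hps, all given 1 μg/ml of a butanol/water extract of Salmonella typhimurium-798. It holds 6 of the 20 arrays of the series, 3 at 8 hps and 3 at 4 hps, paired by replication, and it uses no vehicle-treated array. Beside it the series holds 3 endotoxin-treated arrays at each of 1 and 2 hps, and 2 vehicle-treated arrays (0 μg/ml, replications 1 and 2) at each of 1, 2, 4 and 8 hps. Each array measured total RNA of 1 culture unit. The study describes RNA pooled from several flasks and treatments on different days in its account of RNA isolation and PCR, and whether this holds for every array is not stated. All cultures came from 1 cell line, so that the replicates show the spread between cultures and not between birds.

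Endotoxin is sensed by macrophages through the Toll-like receptor pathway, which frees the transcription factor NF-kB to enter the nucleus. NF-kB switches on within minutes to hours the genes of cytokines and chemokines, the messengers that call and arm other immune cells, and also the genes of its own inhibitors, such as NFKBIA and TNFAIP3, which close the signal again. Some early genes therefore peak and fall back, whereas others, with stable messages or a later second stimulus, stay high or go on rising. Which of the genes induced early kept rising, held their level or fell back between 4 and 8 hps is the question this comparison addresses.

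The values deposited by the authors are expression levels of probe sets on the log2 scale. Differences are given as 8 hps minus 4 hps on that scale with a standard error (SE) from limma, fitted to the 12 endotoxin-treated arrays with time and replication as terms. Calls were made at a q value, which estimates the share of false calls, under 0.05. Of 38439 probe sets tested, 98 were called higher at 8 hps (0.255%) and 11 lower (0.0286%), together 0.284%. The 98 differences lay between 0.38 and 1.22 with a median of 0.60, which is 1.30-fold to 2.32-fold, and the 11 falls lay between -0.34 and -0.90 with a median of -0.55. In each of the 109 the values of 8 hps lay clear of those of 4 hps and the sign was the same in all 3 replications. This largely follows from the calls, which rest on the same arrays. Of all probe sets 7.41% lay clear and higher and 8.63% clear and lower. The last probe set inside the threshold had q = 0.0486 and the first outside q = 0.0503. At an unadjusted p under 0.05 there were 2362 higher and 2308 lower, where 1922 would pass in both directions by chance. With 1 replication left out no probe set was called (0 in each case), and in the fit of all 20 arrays, the fit of the study's methods, 326 were called higher and 87 lower, among them all 109.

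The 20 macrophage markers measured were all brighter than the median probe set, and the sum of their levels on the linear scale was 46580 to 48890 at 8 hps and 44980 to 45640 at 4 hps. For actin, the signal at the 3' end minus that at the 5' end, a measure that moves with RNA integrity, was -0.058 to 0.075 at 8 hps and -0.15 to 0.011 at 4 hps. In the vehicle-treated arrays it was 0.010 and 0.078 at 8 hps and 0.22 and 0.35 at 4 hps. Those at 4 hps were the highest of the series, the lower of them close to endotoxin-treated replication 3 at 1 hps (0.19). Endotoxin-treated replication 3 at 1 and 2 hps (0.19 and 0.11) lay farthest out on the first principal component, at 32.1 and 33.6. These 2 arrays enter the estimate of the spread but not the difference itself. Without them 27 probe sets were called higher and 1 lower.

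To find the genes induced early without using any array of 4 or 8 hps, endotoxin was compared with vehicle over the mean of 1 and 2 hps on those 10 arrays. There, limma called 21 probe sets higher in endotoxin-treated cells (0.0546%), by 0.47 to 2.55, and 0 lower (871 lower at an unadjusted p under 0.05). They stand for 15 genes with a name, of which BTG2 has 2 probe sets, and 5 probe sets without one. Of these 21, 1 was called higher at 8 hps than at 4 hps (0.255% of all probe sets), 0 were called lower (0.0286%), 10 held and 10 remained undetermined. With so few calls over the whole array, 0 lower says nothing about these genes. Held means here that the 95% interval of the difference lay within 0.5 in either direction, as it did for 93% of all probe sets. The difference was positive for 19 of the 21, with a median of 0.21, while the median of all probe sets was -0.02. In vehicle-treated cells it was positive for 19 of the 21 as well, with a median of 0.20 (-0.03 for all probe sets). The endotoxin difference exceeded the vehicle difference by a median of 0.07. With endotoxin, the interval lay above 0 in 10 (6.14% of all probe sets) and below 0 in 1 (6.00%). The highest of the 4 time means was at 8 hps for 13 of the 21, at 4 hps for 2, at 2 hps for 0 and at 1 hps for 6. The 21 were chosen for high endotoxin values at 1 and 2 hps, which favours those times. The same counts over all probe sets were not taken, so these cannot be set against a background.

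The largest difference among the induced genes was that of CD83, a surface protein of activated antigen-presenting cells. CD83 stood at 8.60, 8.01 and 7.38 at 8 hps, and at 7.00, 6.97 and 6.90 at 4 hps in replications 1, 2 and 3. All 3 values of 8 hps were above all 3 of 4 hps, most of all in replication 1. The difference was 1.04 ± 0.23 (SE, n = 3 pairs, 95% interval 0.54 to 1.55) and missed the threshold with q = 0.0808. In vehicle-treated cells CD83 stood at 6.54 and 5.31 at 8 hps, and at 6.08 and 5.17 at 4 hps. The endotoxin difference exceeded the vehicle difference by 0.75 (0.02 to 1.47, q = 0.310).

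LOC415708, which the current gene table names RIPK3, a kinase of programmed necrosis, stood at 6.82, 6.38 and 5.89 at 8 hps, and at 5.47, 5.64 and 5.28 at 4 hps. The groups did not overlap, and the difference of 0.90 ± 0.18 had q = 0.0650. The vehicle-treated cells differed by 0.60 between the same times. K123 stood at 8.08, 7.35 and 7.16 at 8 hps, and at 6.75, 6.95 and 6.85 at 4 hps. Again no value overlapped, with replication 1 the highest at 8 hps and the lowest at 4 hps, and the difference was 0.68 ± 0.20 (q = 0.157), or 0.36 without replication 1. In vehicle-treated cells the K123 difference was 0.00, and the gap between the treatments was 0.68 (0.06 to 1.29, q = 0.288).

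Both interleukin-8 genes, chemokines that draw granulocytes, had wide intervals. IL8 (IL8L2) stood at 11.20, 10.80 and 10.05 at 8 hps, and at 10.19, 10.13 and 10.08 at 4 hps, and IL8 (IL8L1) at 10.09, 9.76 and 8.71 at 8 hps, and at 9.07, 9.01 and 8.91 at 4 hps. In replications 1 and 2 the 8 hps values were the higher ones, and in replication 3 the 8 hps value was the lower one for both genes. Their differences were 0.55 ± 0.21 (q = 0.259) and 0.52 ± 0.24 (q = 0.323), beside 0.47 and 0.45 in vehicle-treated cells. Without replication 1 they were 0.32 and 0.27, and without replication 3 they were 0.84 and 0.88. IL1B, the gene of interleukin-1 beta, the fever-inducing cytokine, stood at 10.81, 10.59 and 10.49 at 8 hps, and at 10.33, 10.26 and 10.22 at 4 hps. IL1B did not overlap and differed by 0.36 ± 0.10 (0.14 to 0.58, q = 0.140), beside 0.23 in vehicle-treated cells. Its mean was higher at each later time, with 9.87, 10.02, 10.27 and 10.63 at 1, 2, 4 and 8 hps. CH25H, which makes the antiviral lipid 25-hydroxycholesterol, stood at 7.82, 7.61 and 7.49 at 8 hps, and at 7.32, 7.49 and 7.24 at 4 hps, with touching but not overlapping groups. Its difference was 0.29 ± 0.14 (q = 0.332), or 0.19 without replication 1.

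The differences of the NF-kB inhibitors lay within the margin. NFKBIA, which keeps NF-kB in the cytoplasm, stood at 12.32, 12.24 and 12.07 at 8 hps, and at 12.03, 12.01 and 11.95 at 4 hps, all 3 pairs in the same direction. Its difference was 0.21 ± 0.09 (0.01 to 0.41, q = 0.289), beside 0.19 in vehicle-treated cells. TNFAIP3, the ubiquitin-editing enzyme A20, stood at 11.43, 11.38 and 11.14 at 8 hps, and at 11.38, 11.21 and 11.15 at 4 hps. These groups overlapped, and the difference was 0.07 ± 0.07 (-0.07 to 0.22). TNIP2, an A20-binding partner, differed by 0.05 ± 0.08 and changed sign when replication 2 was left out. For both inhibitors the highest level was at 1 hps, with means of 12.43 for NFKBIA and 11.70 for TNFAIP3. The growth-restraining gene BTG2 (0.14 ± 0.10) and PIK3R5, a regulatory subunit of the phosphoinositide 3-kinase of white blood cells (0.02 ± 0.09), also held. PIK3R5 stood at 10.18, 10.13 and 10.17 at 8 hps, and at 10.13, 10.12 and 10.18 at 4 hps, above its means of 9.61 at 1 hps and 9.92 at 2 hps.

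Only CCL4 and MRGPRH, of the 15 named induced genes, had a negative difference. CCL4, the chemokine macrophage inflammatory protein 1 beta, stood at 7.90, 7.67 and 7.19 at 8 hps, and at 7.89, 8.06 and 7.95 at 4 hps. Replication 1 was level, while replications 2 and 3 were lower at 8 hps, and the groups overlapped. The difference was -0.38 ± 0.14 (-0.68 to -0.08, q = 0.232), beside 0.20 in vehicle-treated cells, a gap of -0.58 (-1.01 to -0.16, q = 0.237). Without replication 1 the CCL4 difference was -0.58, and without replication 3 it was -0.19. MRGPRH, a receptor of the MAS-related family, stood at 11.39, 11.20 and 11.17 at 8 hps, and at 11.47, 11.50 and 11.43 at 4 hps, all 8 hps values below all of 4 hps. It held by the margin used, at -0.21 ± 0.11, and the vehicle-treated cells differed by -0.21 as well. A second gene that the array annotation also calls CCL4 (LOC395551), the most strongly induced at 1 and 2 hps, stood at 8.99, 8.77 and 7.98 at 8 hps, and at 8.56, 8.61 and 8.52 at 4 hps. Its difference of 0.02 ± 0.27 had an interval of -0.57 to 0.61 and therefore settled nothing about it. At 8 hps 17 of the 21 induced probe sets were still called above vehicle (0.148% of all probe sets), a comparison that shares the 8 hps arrays. The 21 gaps lay between 0.39 and 2.29.

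**Figure D1:**
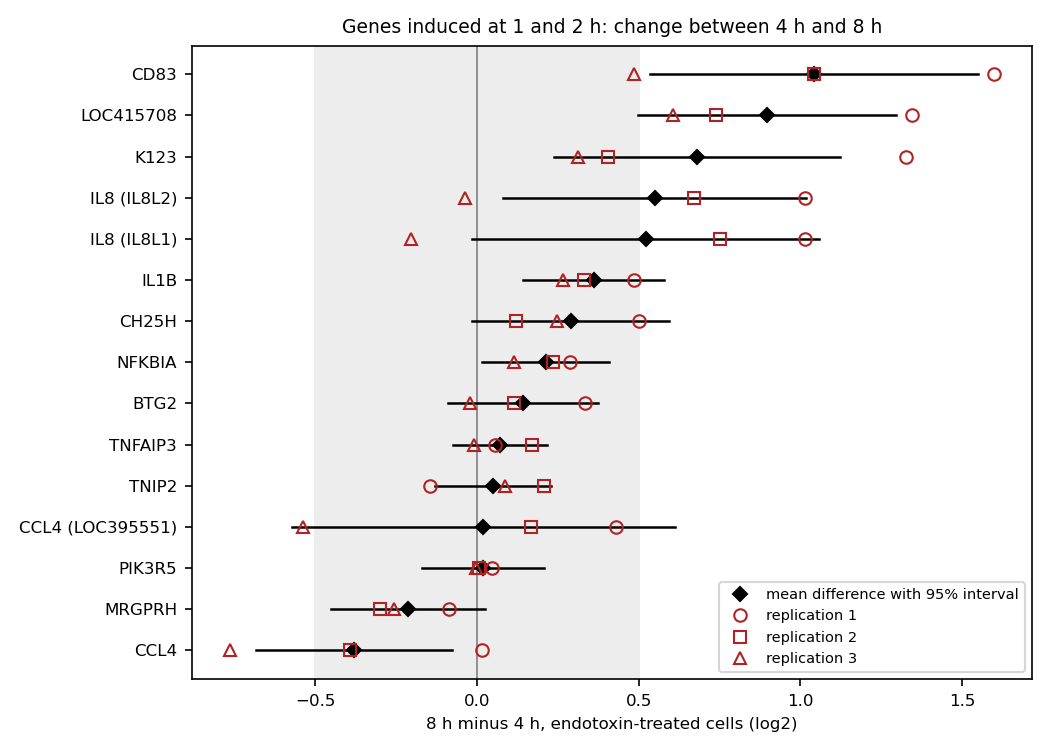
The 15 named genes induced at 1 and 2 hps, with the 8 hps minus 4 hps difference on the log2 scale on the x axis. Diamonds are means with 95% intervals, open symbols the 3 replications and the grey band the margin of 0.5; CD83 lies farthest right at 1.04 and CCL4 farthest left at -0.38, and for the genes at the top replication 1 lies right of replication 3.

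At 8 hps the replications differed more in these genes than over all probe sets, and at 4 hps less. At 8 hps replication 3 had the lowest value in 20 of the 21 induced probe sets and replication 1 the highest in 17, whereas over all probe sets these shares were 33.4% and 30.9%. The standard deviation (SD) among the 3 replications was larger at 8 hps than at 4 hps in 19 of the 21 (46.5% of all probe sets), with medians of 0.22 at 8 hps and 0.079 at 4 hps, while over all probe sets the medians were 0.10 at 8 hps and 0.11 at 4 hps. The median difference of the induced probe sets was 0.37 in replication 1, 0.27 in replication 2 and 0.08 in replication 3, and 18, 19 and 12 of the 21 were positive. CD83 showed the spread most plainly, with differences of 1.60, 1.04 and 0.48. The order of the replications was not particular to 8 hps in every gene. CD83 stood at 7.82, 6.55 and 6.44 in replications 1, 2 and 3 at 2 hps. IL8 (IL8L1) stood at 10.38, 9.06 and 8.77 at 1 hps, while PIK3R5 had the opposite order there (9.44, 9.54 and 9.84). The same counts at 1 and 2 hps were not taken. The cause of the spread between replications was not tested. The SE and intervals from limma take 1 spread for all times. This does not hold in these genes between 4 and 8 hps, so their intervals may be too narrow.

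**Figure D2:**
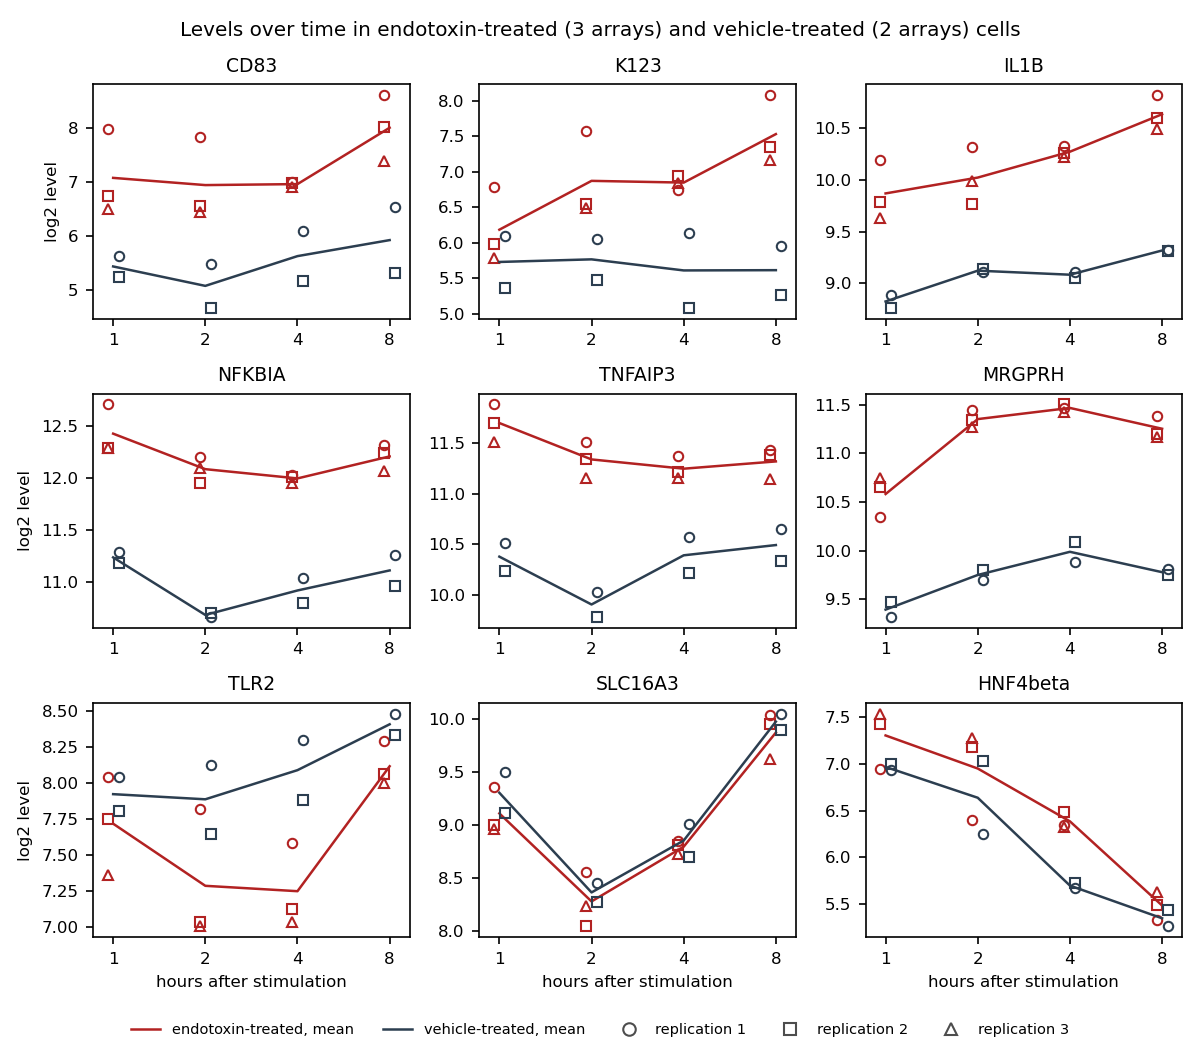
Levels (log2, y axis) of 9 genes at 1, 2, 4 and 8 hours (x axis); lines join the means and symbols are single arrays of endotoxin-treated (red) and vehicle-treated (dark) cells. CD83 and IL1B are highest at 8 hours, NFKBIA and TNFAIP3 are highest at 1 hour, and TLR2, SLC16A3 and HNF4beta show called differences between 4 and 8 hours.

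Of the 98 probe sets called higher, 1 was among the early-induced (0.0546% of all probe sets were), a probe set without a name (0.65, q = 0.0313). Its endotoxin means were 6.59, 6.19, 6.20 and 6.85 at 1, 2, 4 and 8 hps, so that it fell before it rose. In vehicle-treated cells its mean at 4 hps was 6.11, and it differed by 0.39 between 8 and 4 hps. At 8 hps it was not called above vehicle (0.46, q = 0.303). The median early effect of endotoxin on the 98 was -0.03. The 98 carry the names of 66 genes. In 93 of the 98 the mean at 8 hps was the highest of the 4 times, and in 45 the mean at 4 hps was below those at 1 and 2 hps. The choice of the 98 favours high values at 8 hps and low ones at 4 hps, and the same counts over all probe sets were not taken. The largest difference, 1.22, was of a probe set without a name. Of the named genes, CABC1 (COQ8A), an atypical kinase needed to make coenzyme Q in mitochondria, stood at 10.94, 11.13 and 10.81 at 8 hps, and at 9.79, 9.88 and 9.96 at 4 hps. The groups lay well apart, and the difference was 1.08 ± 0.11 (q = 0.00710). SLC16A3, the transporter that carries lactate out of glycolytic cells, stood at 10.05, 9.95 and 9.63 at 8 hps, and at 8.85, 8.81 and 8.73 at 4 hps. All 3 pairs moved up, least in replication 3, by 1.08 ± 0.10 on average (q = 0.00664). PFKFB3, whose product fructose 2,6-bisphosphate speeds up glycolysis, stood at 8.24, 8.47 and 8.08 at 8 hps, and at 7.18, 7.40 and 7.26 at 4 hps, a difference of 0.98 ± 0.13 (q = 0.0146). The dimmer probe sets of SLC16A3 (0.06, level 3.03 at 8 hps) and PFKFB3 (0.08 and 0.06, levels 5.68 and 3.47 at 8 hps) were not called.

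NDRG1, a gene known from mammals to respond to low oxygen, stood at 7.14, 6.97 and 6.64 at 8 hps, and at 6.09, 5.79 and 5.84 at 4 hps, with a difference of 1.01 ± 0.12 (q = 0.00913). A second NDRG1 probe set was called as well (0.84), and the brightest was not (0.44, q = 0.0804). At 1 hps, however, NDRG1 had been as high as at 8 hps, with 7.25, 6.93 and 6.47. CYP3A80, a cytochrome P450, was also lower at 4 hps than at 1 hps, with 7.29, 6.92 and 6.95 at 8 hps, 6.00, 6.27 and 5.91 at 4 hps, and 7.40, 6.73 and 6.54 at 1 hps.

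**Figure D3:**
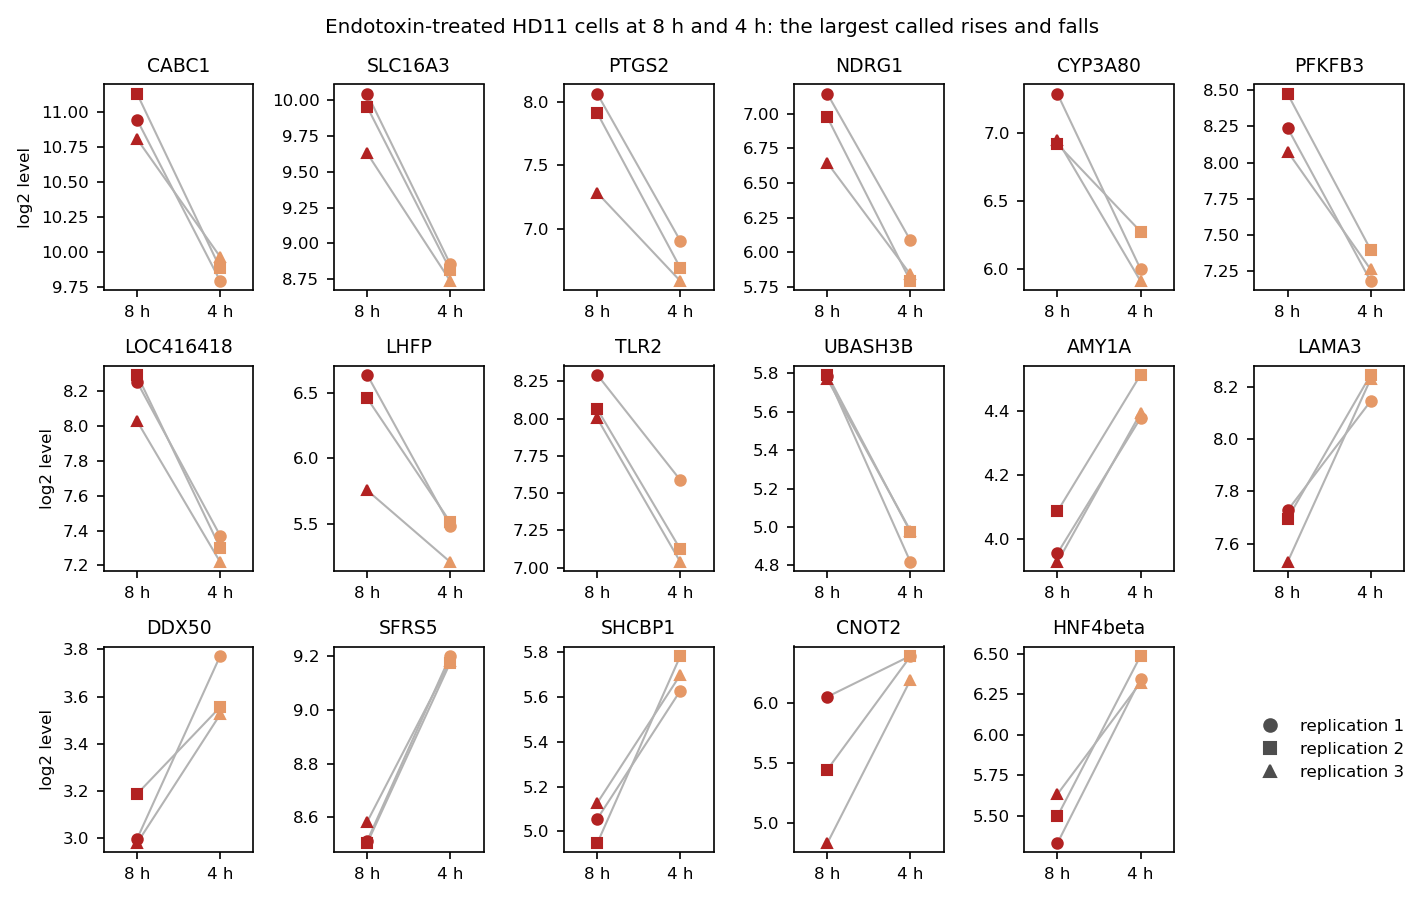
Levels (log2, y axis) in endotoxin-treated cells of the 10 largest rises and the 7 called falls among genes with a name. Each panel has 8 h left and 4 h right. Grey lines join the arrays of 1 replication; in every panel the 3 values of 8 h lie clear of the 3 of 4 h.

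Among immune genes, PTGS2, cyclooxygenase 2, which starts prostaglandin synthesis, stood at 8.06, 7.91 and 7.28 at 8 hps, and at 6.90, 6.69 and 6.59 at 4 hps. The 3 pairs all moved up, least in replication 3, by 1.02 ± 0.13 on average (q = 0.0113). The mean of PTGS2 in endotoxin-treated cells was 7.62 at 1 hps and 7.75 at 8 hps. In vehicle-treated cells PTGS2 differed by 0.85, with 7.42 and 7.13 at 8 hps, and 6.80 and 6.05 at 4 hps. TLR2, a receptor for bacterial lipoproteins, stood at 8.29, 8.06 and 8.00 at 8 hps, and at 7.59, 7.12 and 7.04 at 4 hps, a difference of 0.87 ± 0.11 (q = 0.0113). In vehicle-treated cells TLR2 stood at 8.48 and 8.34 at 8 hps, and at 8.30 and 7.88 at 4 hps, so that the endotoxin-treated arrays were all below the vehicle-treated ones at both times, by less at 8 hps. The TLR2 difference exceeded that in vehicle-treated cells by 0.55 (0.20 to 0.90, q = 0.204). A second, dim TLR2 probe set at a level of 3.21 differed by -0.0042 and was not called. UBASH3B, a phosphatase that dampens receptor signals, stood at 5.79, 5.79 and 5.77 at 8 hps, and at 4.82, 4.97 and 4.98 at 4 hps (0.86 ± 0.11, q = 0.0113). LOC416418 (0.89 ± 0.09, q = 0.00664) and LHFP (0.88 ± 0.15, q = 0.0320) complete the 10 largest named rises. For UBASH3B, LOC416418 and LHFP the mean at 4 hps was below those at 1 and 2 hps.

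Single members of other gene groups were also called higher. BHLHB2 (BHLHE40), a transcription factor of the clock and of hypoxia, stood at 9.91, 9.97 and 9.80 at 8 hps, and at 9.17, 9.27 and 9.24 at 4 hps (0.67 ± 0.09, q = 0.0183). B-MA1 (DMA), a chain of the chicken DM molecule that helps to load peptides onto class II molecules, stood at 8.98, 8.63 and 8.63 at 8 hps, and at 8.10, 8.23 and 8.14 at 4 hps (0.59 ± 0.10, q = 0.0449). IL13RA2, a decoy receptor for interleukin-13, stood at 6.61, 6.34 and 6.31 at 8 hps, and at 5.91, 5.89 and 5.85 at 4 hps (0.53 ± 0.08, q = 0.0226). In vehicle-treated cells BHLHB2 differed by 0.47, B-MA1 by 0.29 and IL13RA2 by 0.19. ERO1L (ERO1A), which oxidizes proteins during folding (0.59 ± 0.08, q = 0.0193), CHAC1, a glutathione-degrading enzyme of the stress response (0.57 ± 0.09, q = 0.0305), and BNIP3L, a receptor for the removal of mitochondria (0.54 ± 0.09, q = 0.0389), were called too. Vehicle-treated cells differed by 0.54 for ERO1L, 0.73 for CHAC1 and 0.27 for BNIP3L. The means of ERO1L and BNIP3L with endotoxin at 1 hps (9.79 and 11.26) were above those at 8 hps (9.60 and 11.09). IL18, a cytokine activated by the same protease as interleukin-1 beta, differed by 0.39 and was not called (q = 0.0567).

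The falls were fewer. HNF4beta, a nuclear receptor, stood at 5.33, 5.50 and 5.63 at 8 hps, and at 6.35, 6.49 and 6.32 at 4 hps, a difference of -0.90 ± 0.14 (q = 0.0264). It continued a decline, with means of 7.30, 6.95, 6.39 and 5.49 at 1, 2, 4 and 8 hps, and in vehicle-treated cells the means were 6.96, 6.64, 5.70 and 5.35. SFRS5 (SRSF5), a splicing factor, stood at 8.51, 8.50 and 8.58 at 8 hps, and at 9.20, 9.18 and 9.18 at 4 hps. Both groups were tight, and the difference was -0.65 ± 0.08 (q = 0.0107), beside -0.51 in vehicle-treated cells. CNOT2, a subunit of the complex that shortens poly(A) tails, stood at 6.06, 5.45 and 4.83 at 8 hps, and at 6.40, 6.39 and 6.20 at 4 hps. Its 8 hps values spread widely, and the difference was -0.89 ± 0.16 (q = 0.0469), beside -0.75 in vehicle-treated cells.

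SHCBP1, a protein of the bridge between dividing cells, stood at 5.06, 4.95 and 5.13 at 8 hps, and at 5.63, 5.78 and 5.70 at 4 hps (-0.66 ± 0.10, q = 0.0241). In vehicle-treated cells it differed by -0.18, and the gap of -0.48 (-0.80 to -0.16) had q = 0.216. LAMA3, a chain of laminin, stood at 7.73, 7.70 and 7.53 at 8 hps, and at 8.14, 8.25 and 8.23 at 4 hps (-0.55 ± 0.08, q = 0.0241). DDX50 (-0.56 ± 0.09) and AMY1A (-0.44 ± 0.08) were called at levels of 3.05 and 3.99 at 8 hps, which are low on this array. The remaining named falls, all with an unadjusted limma p under 0.001, did not pass the q threshold, though some were larger than called ones. CD36, a scavenger receptor for lipids that also marks macrophages, stood at 8.03, 7.98 and 8.31 at 8 hps, and at 8.99, 8.99 and 8.91 at 4 hps (-0.85 ± 0.17, q = 0.0649), and its second probe set differed by -0.77 (q = 0.0567). PCDH10 (-0.74 ± 0.16, q = 0.0733) and MPP3 (-0.62 ± 0.13, q = 0.0654) were the others.

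Vehicle-treated cells gave differences of the same sign between the same hours. Of the 98 probe sets called higher with endotoxin, 97 had a positive 8 hps minus 4 hps difference in vehicle-treated cells, 93 of them in both replications, where 44.3% and 29.1% of all probe sets had one. Their median in vehicle-treated cells was 0.48, against -0.03 for all probe sets, and 68 were called higher in vehicle-treated cells as well, where 1212 (3.15%) were called higher and 785 (2.04%) lower, together 5.2%. Of the 11 called lower, 11 were negative in vehicle-treated cells, 9 of them in both replications (37.2% of all probe sets), with a median of -0.24. These 2 differences share no array but share replications 1 and 2. Because the vehicle-treated arrays at 4 hps had the highest actin values, those of 8 hps were also set against those of 1 and 2 hps. There 719 (1.87%) were called higher and 348 (0.905%) lower, together 2.78%. Then 94 of the 98 were positive with a median of 0.44, and 10 of the 11 were negative with a median of -0.37. The exception in the first comparison, LSP1, a cytoskeletal protein of leukocytes chosen for mention after its values were seen, differed by 0.48 with endotoxin and by -0.09 with vehicle in its called probe set, while its other probe sets were not called.

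The difference between endotoxin-treated and vehicle-treated cells in their change between 4 and 8 hps was called by limma for 0 probe sets (smallest q = 0.157), with 4537 at an unadjusted p under 0.05. Of the 109 called with endotoxin, 22 had such an unadjusted p. The unadjusted 95% interval of the gap spanned 0 for 82 of the 98 higher and 5 of the 11 lower. Its median width was 0.31 to each side, so that gaps smaller than this could not be seen for most. Larger gaps also missed the q threshold, among them the 0.55 of TLR2, so that the 0 calls do not exclude them. For SLC16A3 the gap was -0.05 (-0.35 to 0.26) and for PFKFB3 -0.07 (-0.46 to 0.33). Among those with an interval clear of 0 were LHFP at 0.65 (0.14 to 1.16, q = 0.253) and WDFY4 at 0.57 (0.19 to 0.96, q = 0.216). In vehicle-treated cells these 2 differed by 0.23 and 0.20. For the 98 the median gap was 0.13, and it was positive in 74. The gap contains the endotoxin difference by which the 109 were chosen. In them it is therefore pulled towards the sign of that difference. At 8 hps 3 of the 98 were called above vehicle, in a comparison that shares the 8 hps arrays and called 57 (0.148%) higher in all.

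**Figure D4:**
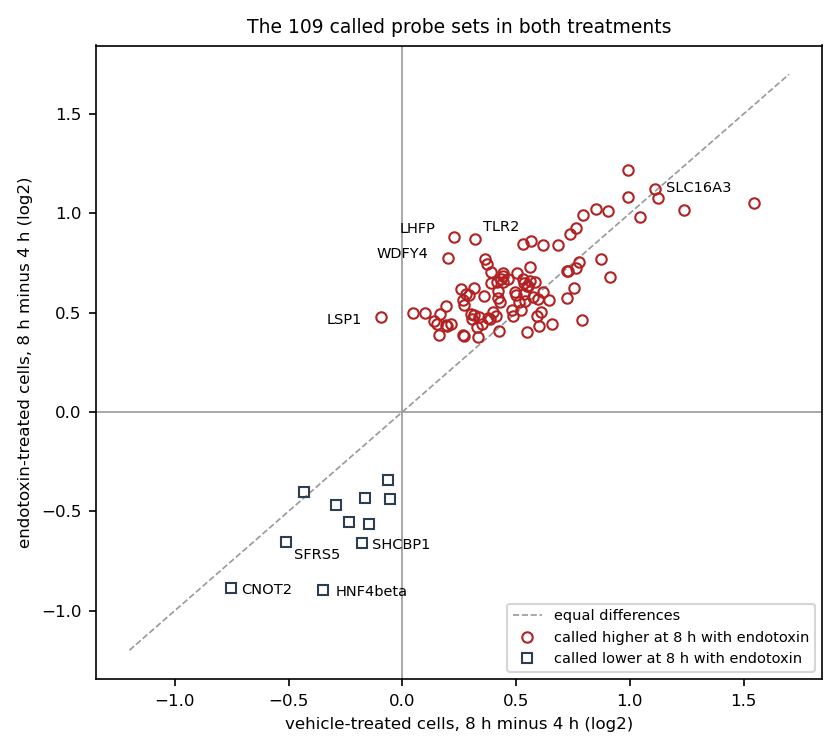
The 109 probe sets called in endotoxin-treated cells, with their 8 hps minus 4 hps difference (log2) in endotoxin-treated cells on the y axis and in vehicle-treated cells on the x axis. Circles are the 98 called higher and squares the 11 called lower; 97 circles lie right of 0 and all 11 squares left of it, and LSP1 is the circle at -0.09.

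Of 25 gene lists, 15 held no called gene. The list of glycolysis and hypoxia genes held the most, 6 of 40 higher and 0 lower, beside 0.255% of all probe sets called higher. They were SLC16A3, PFKFB3, EGLN3, an oxygen-sensing hydroxylase (0.73 ± 0.11, q = 0.0256), ADM, the vessel-widening peptide adrenomedullin (0.55 ± 0.09, q = 0.0351), P4HA1, a collagen prolyl hydroxylase (0.48 ± 0.07, q = 0.0193), and SLC2A1, the main glucose transporter (0.44 ± 0.08, q = 0.0439). EGLN3 stood at 5.71, 5.55 and 5.43 at 8 hps, and at 4.85, 4.86 and 4.79 at 4 hps. The values of 8 hps lay clear above those of 4 hps for 24 of the 40 (7.41% of all probe sets) and clear below for 0. The median of the list was 0.10, and in vehicle-treated cells it was 0.12. Of the enzymes of the central pathway, GAPDH (0.03) and PGK1 (0.07) differed little. LDHA differed by 0.25, above the 95th percentile of all probe sets (0.22), and none of the 3 was called. In the fit with no replicate block, 3 of the 40 were called.

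The mitosis and cyclin list held 0 called genes of 65 (0.284% of all probe sets were called). Its median was -0.16, which became -0.086 without replication 1 and -0.21 without replication 3, and 33 of the 65 lay clear below at 8 hps (8.63% of all probe sets) against 3 clear above. BUB1, a kinase of the spindle checkpoint, differed by -0.32 ± 0.07 (q = 0.0668), and PLK1, the polo kinase of mitosis, differed by -0.25 ± 0.06 (q = 0.115). In vehicle-treated cells the median of the list was -0.04. The list of DNA replication and repair genes had a median of -0.0049 with 8 of 64 clear below and 6 clear above. The cytokine and chemokine list had 0 of 35 called and a median of 0.05, beside 0.0037 in vehicle-treated cells. The list of NF-kB inhibitors and feedback regulators had 0 of 30 called and a median of 0.09, with 23 of the 30 positive (45.1% of all probe sets), 6 clear above and 2 clear below. In vehicle-treated cells the median of this list was 0.10, with 21 of the 30 positive. Among 62 cytosolic ribosomal proteins 0 were called, with a median of 0.01. The 39 phagocyte effectors, PTGS2 among them, had a median of 0.07, beside -0.0078 in vehicle-treated cells.

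**Figure D5:**
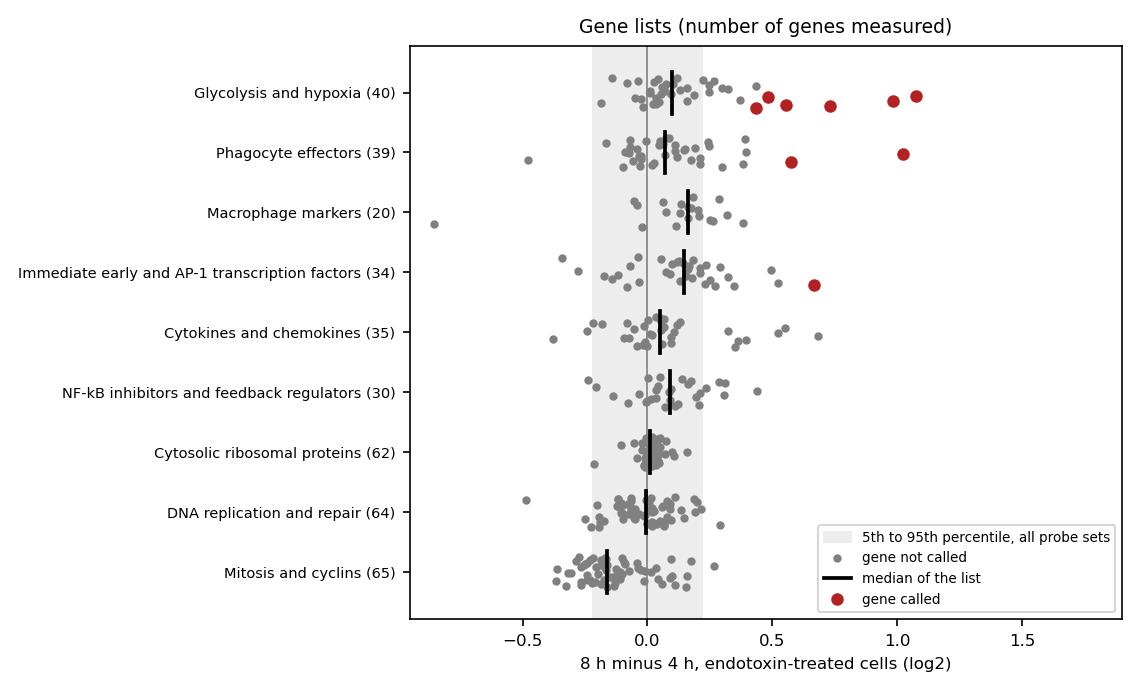
Differences (8 hps minus 4 hps, log2, x axis) of the genes of 9 lists, 1 point a gene, with called genes in red and the list median as a black bar. The grey band spans the 5th to 95th percentile of all probe sets (-0.22 to 0.22); the 6 called genes of the glycolysis and hypoxia list lie at 0.44 to 1.08, and the median of the mitosis and cyclin list lies at -0.16.

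Of the macrophage markers, 0 of 20 were called (0.284% of all probe sets), with a median of 0.16, beside 0.14 in vehicle-treated cells. With endotoxin, 11 lay clear above at 8 hps (7.41% of all), LGALS3 (galectin-3) by 0.38 and CD44 by 0.32. CD36 was the 1 that lay clear below (8.63% of all). Markers of T cells (0 of 12), B cells (0 of 9) and erythroid cells (0 of 9) had no call. Their summed linear levels overlapped between the times for B and erythroid cells and were 1931 to 2058 at 8 hps and 1764 to 1862 at 4 hps for T cells. The median difference of the T cell list, however, was -0.05, with 4 of the 12 positive. The fibroblast list had 1 of 17 called, VIM, the filament protein vimentin, which macrophages also make, at 11.78, 11.84 and 11.81 at 8 hps, and 11.42, 11.39 and 11.35 at 4 hps (0.43 ± 0.07, q = 0.0293). The summed level of the fibroblast list was 6594 to 7032 at 8 hps and 5613 to 5944 at 4 hps. A linear sum gives most weight to bright genes such as VIM, and the median difference of the list was 0.01, with 9 of the 17 positive. Of its 17 genes 7, like 4 of the 12 T cell genes, were above the median probe set. The part of other cells in these differences was not tested. In a culture, more cells of 1 state and more RNA per cell cannot be told apart.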

How the data were processed

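RNA of endotoxin-treated and vehicle-treated HD11 cells was hybridised to Affymetrix chicken arrays. The log2 values deposited by the authors come from the Robust Multiarray Average: background correction, quantile normalization and summary per probe set. A deposited table of the authors' own log2 ratios and q values of endotoxin against vehicle was used for its gene annotation only. Of 38535 probe sets, 96 controls were left out. In the annotation 25795 of the 38439 tested carry 1 gene name, 671 several and 11973 none. Of the 25795, 13070 were matched to the current gene table by transcript, 8609 by symbol and 476 by synonym. Names printed are the annotation's, with the current one in brackets where it differs. For CYP3A80, LHFP, LSP1 and DDX50 the match was doubtful and only the annotation's name is given. No sequence was used here.

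With limma 3.58.1 under R 4.3.3, time and replication were fitted as fixed terms to the 12 endotoxin-treated arrays, with 6 residual and 4.90 prior degrees of freedom. The q values come from the histogram of p-values in 20 bins. The pairing follows the study's methods, which fit replication as a fixed effect and, for RNA isolation, place replicate treatments on different days. The correlation of the deviations of 8 and 4 hps arrays was 0.05, -0.03 and 0.32 in replications 1, 2 and 3. Differences between treatments, and those between times in vehicle-treated cells, were fitted to all 20 arrays. The number of arrays limits the precision, with a median SE of 0.090.

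Named genes are the 10 largest called rises and falls with 1 name and 1 sign in all replications, filled where fewer than 10 were called with genes of an unadjusted p under 0.001, every early-induced gene, and up to 4 called members of each gene list. One result that this rule names is not reported here. Members, lists and tests were chosen with earlier results of these data known. On simulated arrays of the 8 hps minus 4 hps comparison (38439 probe sets) changes of 0.5, 1 and 2 were recovered in 57.9%, 97.0% and 100% of cases, with 5.25% false calls. The simulated noise was independent between probe sets, with the same spread at all times, and few probe sets were changed. In the real arrays the spread of the induced genes differed between times, so these rates need not hold there. Alternatives were other array sets, other handling of replication, Benjamini-Hochberg adjustment, trend and robust options, array weights, cyclic loess, centring on ribosomal proteins, brighter probe sets only, controls included, a margin of 0.3, other choices of induced genes, any probe set of a gene, and each replication left out. The vehicle-treated arrays alone were added after the data were seen.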

Additional observations from a re-analysis of the deposited data

How the results depend on the processing

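The counts of called probe sets depended on the setting. The sign of all 109 called in the report was the same under each alternative that held them, which was largely fixed in advance. Most alternatives leave the difference itself unchanged, and all 109 had 1 sign in the 3 replications, so leaving 1 out cannot turn it. Against 98 higher and 11 lower, there were 326 and 87 with all 20 arrays, 11 and 0 with the 6 arrays of 8 and 4 hps alone, 27 and 1 without 2 early arrays of replication 3 (endotoxin, 1 and 2 hps), 483 and 148 with trend and robust options, and 392 and 115 among the brighter probe sets. Benjamini-Hochberg adjustment gave 81 and 7. With no replicate block there were 20 and 2, all among the 109. With each replication left out in turn the counts were 0 to 0 in both directions, where 3 residual degrees of freedom remain and the smallest q was 0.0753, 0.118 and 0.154 without replication 1, 2 and 3.

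Of the early-induced probe sets, 5 were called higher at 8 hps with all 20 arrays, with trend and robust options and among the brighter probe sets, and 0 with the 6 arrays alone, without the 2 arrays of replication 3, with array weights, with no replicate block, with replication as a random effect, with the induced chosen without replication 3, and with any replication left out (0 to 0). None was called lower under any setting (0). Those held numbered 3 with a margin of 0.3 and 6 to 9 with each replication left out. Of the glycolysis and hypoxia genes, 10 were called with trend and robust options, 3 with no replicate block, 2 with the 6 arrays alone, 2 without the 2 arrays of replication 3, and 0 to 0 with each replication left out. The difference between treatments had 0 calls in each of its alternatives.

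Among named genes, CCL4 (LOC395551) turned to -0.13 with array weights and ranged over -0.19 to 0.30 with each replication left out, negative without replication 1 (-0.19) and replication 2 (-0.053), and TNIP2 ranged over -0.030 to 0.15, negative without replication 2. The vehicle-treated arrays alone, chosen after the data were seen, gave 655 higher and 158 lower at 8 hps than at 4 hps, where the fit of all 20 arrays gave 1212 and 785. The causes were not tested.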

Other observations

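Several genes outside the rule for named genes were called higher at 8 hps in endotoxin-treated cells and are given here as values, chosen after these were seen. ITGB5, an integrin chain (0.84, q = 0.00720), UPP1, which splits uridine (0.77 and 0.67 by 2 probe sets), GYG1, the primer of glycogen synthesis (0.68, 0.60 and 0.48 by 3 probe sets), PLA2G4A, the phospholipase that frees arachidonic acid for prostaglandins (0.40, q = 0.0348), ADA, adenosine deaminase (0.62, q = 0.0476), and MXI1, an antagonist of MYC (0.51 and 0.49 by 2 probe sets), were among them. In vehicle-treated cells the same probe sets differed by 0.69 for ITGB5, 0.36 and 0.43 for UPP1, 0.44, 0.28 and 0.49 for GYG1, 0.55 for PLA2G4A, 0.26 for ADA, and 0.52 and 0.32 for MXI1.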
